A study of Mus musculus with 12 samples.

Results

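Transcripts of 8 genes for matrix metalloproteinases (MMPs) and their tissue inhibitors (TIMPs) were followed through mouse kidneys injured with cisplatin. The genes were chosen by symbol: Mmp2, Mmp3, Mmp7, Mmp9, Mmp14, Timp1, Timp2 and Timp3, which are 8 of the 45777 genes in the deposited table. All 8 passed the filter on low counts.

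MMPs are zinc-dependent proteases that cut collagens, laminin, proteoglycans and many non-matrix proteins, and most are made as inactive proenzymes. TIMPs bind the active site of MMPs and block it, so the balance between both families shapes the turnover of the extracellular matrix. In the kidney, MMP-2 and MMP-9 are known for cutting basement membrane collagen, and MMP-7 is known as a protein of injured tubular epithelium.

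Bulk RNA sequencing covered kidneys of wild type male C57BL/6 mice in 12 libraries, with 3 in each of 4 groups. The normal group received neither cisplatin, a DNA-crosslinking drug toxic to the renal tubule, nor vesicles. The other groups all received cisplatin intraperitoneally, at 9 mg/kg a week for 5 cycles, and then 5 intravenous injections 3 days apart. Those injections held phosphate-buffered saline (PBS group), 200 µg of extracellular vesicles (EV200 group), or 400 µg of them (EV400 group). The labels call the source cells iMSC and do not spell the name out. Kidneys were collected 3 days after the last treatment. No group received vesicles without cisplatin. The labels number the libraries of a group as biological replicates and do not say in so many words that each is a different mouse, so p-values are read as measuring the spread between these libraries. The labels do not give the age of the mice, and they list 1 batch for every library.

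Depth ranged from 46.6 to 62.09 M counts per library. Levels are given as CPM, counts relative to library size scaled with TMM factors, and means are ± SD over 3 libraries. Libraries within a group differed widely. On the first principal component of log2 CPM, which carried 43.37% of the variance, the normal libraries lay at -47.9 to -39 and the PBS libraries at 15.4 to 83.4. Library EV200 3 lay at 60.5 while the other EV200 libraries lay at -18.7 and -8.6, and EV400 3 lay at -52.1 while the other EV400 libraries lay at 1.1 and 7.9. Library PBS 3 held adipocyte transcripts, with 6 adipocyte markers summing to 112.1 CPM against 22.94 to 34.45 CPM elsewhere. Elsewhere that sum was mostly Fabp4, at 22.71 to 34.1 CPM. In PBS 3, Adipoq stood at 7.668 and Cfd at 24.18 CPM, against at most 0.1243 and 0.4351 CPM in any other library. Defining markers of kidney epithelium were present, with 5 proximal tubule markers summing to 6408 CPM or more in every library. Of 15293 genes with a median count of 30 or more, 41 were listed at 0 in some library, 14 of them in EV400 3, Timp1 among those. Such genes were as frequent in the normal libraries, with 8, 13 and 14 in normal 1, 2 and 3, against 0 to 5 in each remaining library. Genes with a count of 2 also outnumbered those with a count of 1 in every library. How counts relate to single reads at the low end is therefore uncertain, and a 0 is written below as listed at 0.

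The promoters of Mmp3 and Mmp7 are shown because these were the members listed at 0 in every normal library, and that of Timp1 because it had the largest fitted fold against normal among the other members. Each sequence is the 250 bases upstream of the gene's first RefSeq start on GRCm38.p6, read 5′ to 3′ on the + strand of the gene. Capitals mark matches, on either strand, to the letters of an AP-1 site (TGANTCA) and of a PEA3 site (AGGAAG), which are textbook elements of inducible MMP promoters. The regions are chr9:7445572-7445821 for Mmp3, chr9:7691840-7692089 for Mmp7 and chrX:20869916-20870165 for Timp1.
Mmp3: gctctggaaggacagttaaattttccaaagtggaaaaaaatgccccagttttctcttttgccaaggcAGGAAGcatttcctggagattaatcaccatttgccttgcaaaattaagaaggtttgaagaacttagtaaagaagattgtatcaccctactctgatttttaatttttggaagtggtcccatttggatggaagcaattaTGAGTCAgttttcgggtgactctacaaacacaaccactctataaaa
Mmp7: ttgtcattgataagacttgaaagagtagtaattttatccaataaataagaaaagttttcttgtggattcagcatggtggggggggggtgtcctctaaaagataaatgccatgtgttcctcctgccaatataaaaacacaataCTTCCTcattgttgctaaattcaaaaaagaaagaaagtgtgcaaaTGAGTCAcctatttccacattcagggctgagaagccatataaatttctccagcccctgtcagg
Timp1: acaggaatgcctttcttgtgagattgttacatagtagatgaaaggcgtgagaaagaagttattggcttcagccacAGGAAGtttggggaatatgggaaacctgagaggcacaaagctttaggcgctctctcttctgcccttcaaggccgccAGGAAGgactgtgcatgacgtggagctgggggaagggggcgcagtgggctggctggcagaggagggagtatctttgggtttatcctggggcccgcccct

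The AP-1 letters began 46 bases upstream of the Mmp3 start and 63 bases upstream of the Mmp7 start, and TGAGTCA was the form found in both. The Timp1, Timp2, Timp3 and Mmp14 windows held no match to those letters. Mmp2 and Mmp9 had no listed promoter and were not searched, so nothing is known here of their letters. AP-1 letters occurred in 6.75% of 32851 promoters of the same length, PEA3 letters in 29.5% and both together in 1.98%. PEA3 letters lay 183 bases upstream of Mmp3, 108 of Mmp7, 209 of Mmp14, 204 of Timp3, and 175 and 99 of Timp1, with none in the Timp2 window. A TATA box by its letters (TATAAA) lay 7 bases upstream of the Mmp3 start and 123 and 26 bases upstream of the Mmp7 start, against 12.4% of all promoters. The RefSeq table lists a second start for Mmp7, whose window held PEA3 letters but no AP-1 letters. These are matches of letters only, and no binding was measured.

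Mmp3 lies at chr9:7445822-7455975 and Mmp7 at chr9:7692090-7699585, both on the + strand, within a row of MMP genes that runs from Mmp13 through Mmp12, Mmp1b, Mmp3, Mmp1a, Mmp10, Mmp8, Mmp27 and Mmp20 to Mmp7. The other members are on separate chromosomes, with Mmp2 on 8, Mmp9 on 2, Mmp14 on 14, Timp1 on X, Timp2 on 11 and Timp3 on 10. Timp1 and Timp3 each lie inside a gene of the other strand, Syn1 and Syn3. Timp1 and Syn1 share no exon bases, whereas Timp3 and Syn3 share 1733. Syn3 was at 22.87 to 48.98 CPM and Timp3 at 1907 to 2920 CPM, so Syn3 was the smaller of the pair in every library. Mmp7 shares 123 exon bases with the antisense transcript AV064505. The kit marks strand, but the strand setting of the counting is not given in the sources used here, so reads from these overlaps cannot be told apart.

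To compare levels between genes, the authors' deposited TPM values, which are scaled by transcript length and library size, were used. Timp3, the inhibitor that stays bound to the matrix, dominated the set with a mean of 938.4 TPM over 12 libraries and a range of 786.3 to 1073. Timp2, which also takes part in activating pro-MMP-2, followed at 24 TPM, then Mmp14, the membrane-bound activator of pro-MMP-2, at 9.557 TPM and Mmp2, a gelatinase, at 5.293 TPM. Timp1, the secreted inducible inhibitor, averaged 2.462 TPM, Mmp7 (matrilysin) 1.431, Mmp3 (stromelysin) 0.7778 and Mmp9, the other gelatinase, 0.6087. Over all libraries, the ranges of neighbours in this order overlapped for every pair below Timp3. Within each library, Timp2 was above Mmp14, Mmp14 above Mmp2 and Mmp2 above Timp1, whereas the order of Mmp7, Mmp3 and Mmp9 varied. Timp3 supplied 93.9 to 98.89% of the TPM of the 3 TIMPs, and the sum of the 5 MMPs ran from 4.756 in EV400 3 to 53.51 in PBS 2, against 6.036 to 6.93 in the normal libraries.

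**Figure D1:**
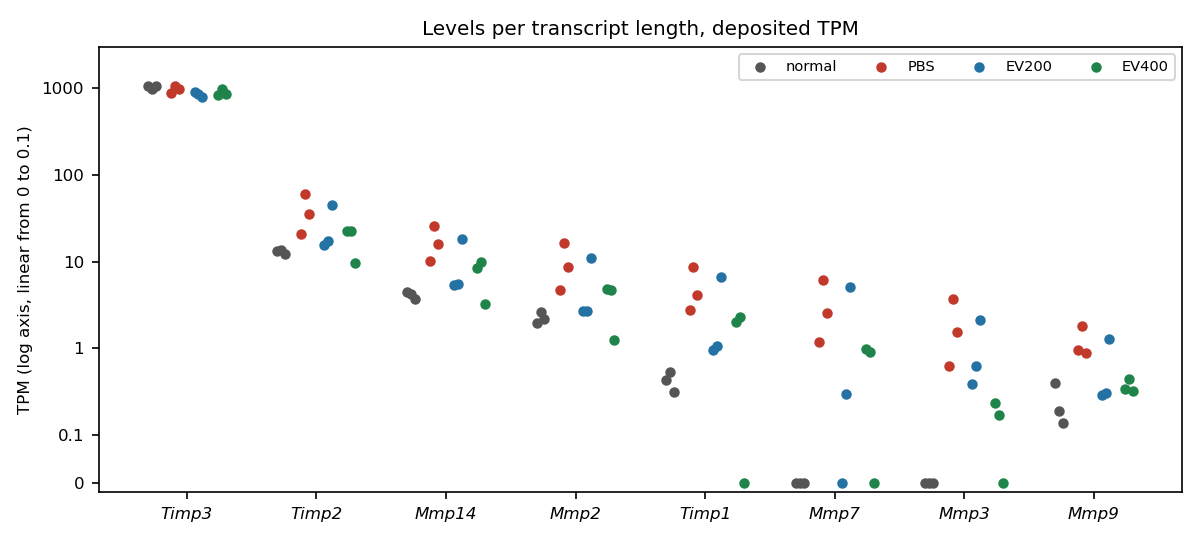
Deposited TPM of each gene in each library, on a log axis that is linear from 0 to 0.1, with genes ordered by mean and points coloured by group. Timp3 sits between 786.3 and 1073 TPM in every library, above all other genes plotted.

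The first comparison set cisplatin with PBS against normal kidney, the injury contrast of the design. Mmp3 rose, and it was the 1 member of 8 called by edgeR's quasi-likelihood test at a Benjamini-Hochberg adjusted p under 0.05, where 2.74% of 18730 tested genes were called and 1.84% were called higher. For the other 7 members the adjusted p lay between 0.0541 and 0.113, so none passed, although each had an unadjusted p under 0.05, as 29.8% of all genes did. All 5 MMPs, Timp1 and Timp2 were higher in each PBS library than in any normal one (7 genes, background 20.3%), and Timp3 was lower in each (background 20%). DESeq2 called 7 of the 8, all but Timp3, where it called 16.3% of its tested genes. Without PBS 1, edgeR's test called 2277 genes, against 514 with all libraries, and 5 members were among them (Mmp2, Mmp3, Mmp9, Mmp14 and Timp2). It called 0 members without normal 1, 2 or 3, and 0 without PBS 2.

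Mmp3, whose product cuts proteoglycans and activates other pro-MMPs, was listed at 0 in normal 1, 2 and 3 and had levels of 0.6008, 3.278 and 1.457 CPM in PBS 1, 2 and 3. PBS 2 was highest and every PBS library was above the normal ones. The PBS mean was 1.778 ± 1.367 CPM (SD, n = 3). With a floor of 3 counts per normal library, that mean was at least 29.05-fold higher than normal, or 16.81-fold without PBS 2. This bound holds only if a listed 0 stands for no more than 3 counts. The change fitted by edgeR, a different measure, had a Benjamini-Hochberg adjusted p of 0.0405 by the quasi-likelihood test. Because every normal library was listed at 0, Mmp3 passed the filter on low counts only through libraries given cisplatin. Its p-value is therefore no independent support for the difference. The edgeR call of Mmp3 was lost when a normal library was left out, with adjusted p = 0.134 to 0.148. It was also lost without PBS 2 (adjusted p = 0.108) or PBS 3 (adjusted p = 0.0589), all by edgeR's quasi-likelihood test. In bulk tissue, fewer or more cells of a type and a change in RNA per cell cannot be told apart.

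Mmp7, which acts on matrix and on cell surface proteins, was also listed at 0 in every normal library and stood at 0.6837, 3.263 and 1.44 CPM in PBS 1, 2 and 3. Its mean of 1.796 ± 1.326 CPM (SD, n = 3) was at least 29.33-fold higher than the same floor, or 17.35-fold without PBS 2. The adjusted p from edgeR's quasi-likelihood test was 0.0699, and DESeq2 gave 0.00791. Like Mmp3, Mmp7 passed the filter only through libraries given cisplatin, so the edgeR p-value is no independent support. In PBS libraries both genes thus lay near each other in level, with PBS 2 highest and PBS 1 lowest for each.

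Mmp14 was at 10.06, 9.587 and 8.241 CPM in the normal libraries and at 20.41, 47.61 and 32.08 CPM in the PBS libraries. The groups did not overlap, and PBS 2 was highest. The log2 fold change was 1.85 (SE 0.47), with adjusted p = 0.0541 by edgeR's quasi-likelihood test. Mmp2, whose proenzyme the MMP-14 protein activates, was at 3.567, 4.804 and 3.903 CPM in normal and at 7.645, 24.95 and 14.1 CPM in PBS libraries. Its normal and PBS libraries were also separate, by a log2 fold change of 1.93 (SE 0.59) and an edgeR adjusted p of 0.0694. Mmp9 was low in normal kidney, at 0.817, 0.39 and 0.2906 CPM, and stood at 1.616, 2.816 and 1.49 CPM in PBS libraries. Its log2 fold change was 1.98 (SE 0.55), and its edgeR adjusted p was 0.0597.

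Among the inhibitors, Timp1 differed most in fold. It was at 0.2591, 0.3079 and 0.1661 CPM in normal and 1.305, 3.754 and 1.925 CPM in PBS libraries, a log2 fold change of 3.24 (SE 1.03). The groups were separate, but the normal values rest on 8 to 15 counts, and the edgeR adjusted p was 0.076. Timp2 stood at 28.22, 29.52 and 26.05 CPM in normal and 40.3, 107.4 and 67.94 CPM in PBS libraries. The log2 fold change of Timp2 was 1.37 (SE 0.41), with an edgeR adjusted p of 0.0674. Timp3 went the other way, at 2907, 2790 and 2920 CPM in normal and 2184, 2438 and 2424 CPM in PBS libraries. Timp3 was lower by 0.29 on the log2 scale (log2 fold change -0.29, SE 0.11), and its edgeR adjusted p was 0.113.

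**Figure D2:**
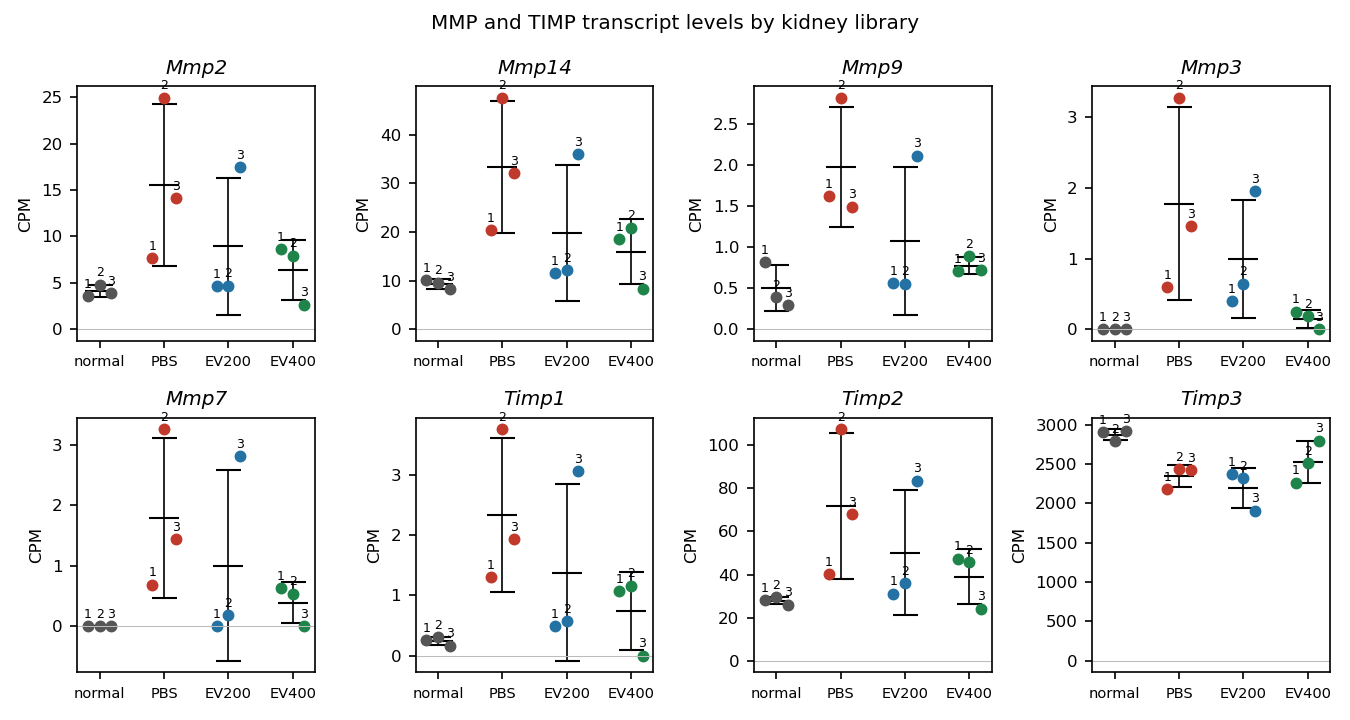
CPM of each gene in each library, with the replicate number beside each point and a horizontal mark with bars for the mean and SD over 3 libraries in each group. In 7 of the 8 panels PBS 2 is the highest point and EV200 3 the next, and in the Timp3 panel EV200 3 is the lowest.

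The 200 µg dose was compared with PBS to ask how vesicle-treated kidneys differed from injured ones. No member was called by edgeR's quasi-likelihood test, where 0.016% of genes were, and no member had an unadjusted p under 0.05 (6.9% of genes) or was called by DESeq2 (0.218% of genes). All 8 had overlapping groups, where 5.53% of genes were separate and higher and 4.94% separate and lower. The log2 fold changes lay between -0.88 for Mmp9 (SE 0.52) and -0.09 for Timp3 (SE 0.11). Libraries EV200 1 and EV200 2 were low and EV200 3 was high for the members other than Timp3. For Mmp14 those libraries stood at 11.47, 12.15 and 36 CPM, for Timp2 at 31.13, 35.88 and 83.49, and for Timp1 at 0.4922, 0.5725 and 3.062. EV200 3 ranked after PBS 2 among all 12 libraries for each of those 7 genes. Without EV200 3, the Mmp14 log2 fold change against PBS moved from -0.75 to -1.5, with an adjusted p of 0.199 by edgeR's quasi-likelihood test, and that of Mmp9 from -0.88 to -1.83. Without PBS 2 the differences shrank instead, to -0.4 for Mmp14, -0.52 for Mmp9, -0.04 for Mmp3, -0.08 for Mmp7, -0.23 for Timp1, -0.28 for Mmp2 and -0.1 for Timp2.

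The 400 µg dose was compared with the same PBS libraries, so both vesicle comparisons share their control. No member was called by edgeR's quasi-likelihood test, where 0.0801% of genes were. A group of 5 members had an unadjusted p under 0.05, as 23.5% of genes did. For Mmp3, Mmp7, Mmp9 and Timp1 every EV400 library was below every PBS library (4 genes, background 13.8%). Mmp3 was at 0.2504, 0.1865 and 0 CPM in EV400 1, 2 and 3, all below the lowest PBS library at 0.6008. Its log2 fold change was -3.57 (SE 0.96), with an adjusted p of 0.136 by edgeR's quasi-likelihood test and of 0.00733 by DESeq2, which called this member and 5.62% of its tested genes. The EV400 counts of Mmp3 were 12, 9 and 0, so it passed the filter on low counts only through PBS and EV200 libraries, where it was higher. Neither its p-values nor its place among the 5 members above is therefore independent support. Without EV400 3 the Mmp3 value was -3.01, so the direction did not rest on the library listed at 0.

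Mmp9, a gelatinase of myeloid cells among others, stood at 0.7093, 0.8912 and 0.7186 CPM in EV400 libraries and at 1.49 to 2.816 in PBS libraries. This difference of -1.35 (SE 0.53) on the log2 scale had an edgeR adjusted p of 0.181. Mmp7 was at 0.6259, 0.5389 and 0 CPM and Timp1 at 1.064, 1.161 and 0 CPM in EV400 1, 2 and 3. EV400 1 and EV400 2 were only a little below the lowest PBS library for both genes (0.6837 and 1.305 CPM). Fitted log2 fold changes were -2.2 for Mmp7 (SE 1.41) and -1.64 for Timp1 (SE 0.93), with edgeR adjusted p of 0.343 and 0.281. Without EV400 3, in which both were listed at 0, those values were -1.62 for Mmp7 and -1.06 for Timp1. Without PBS 2 they were -1.43 and -1.11, and the Mmp3 value was -2.78. Mmp2, Mmp14 and Timp2 overlapped PBS, at -1.29, -1.07 and -0.88 on the log2 scale (-0.76, -0.72 and -0.47 without PBS 2), and Timp3 was 0.1 higher. EV400 3 was the lowest of the EV400 libraries for Mmp2, Mmp14 and Timp2, at 2.643, 8.369 and 24.25 CPM.

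**Figure D3:**
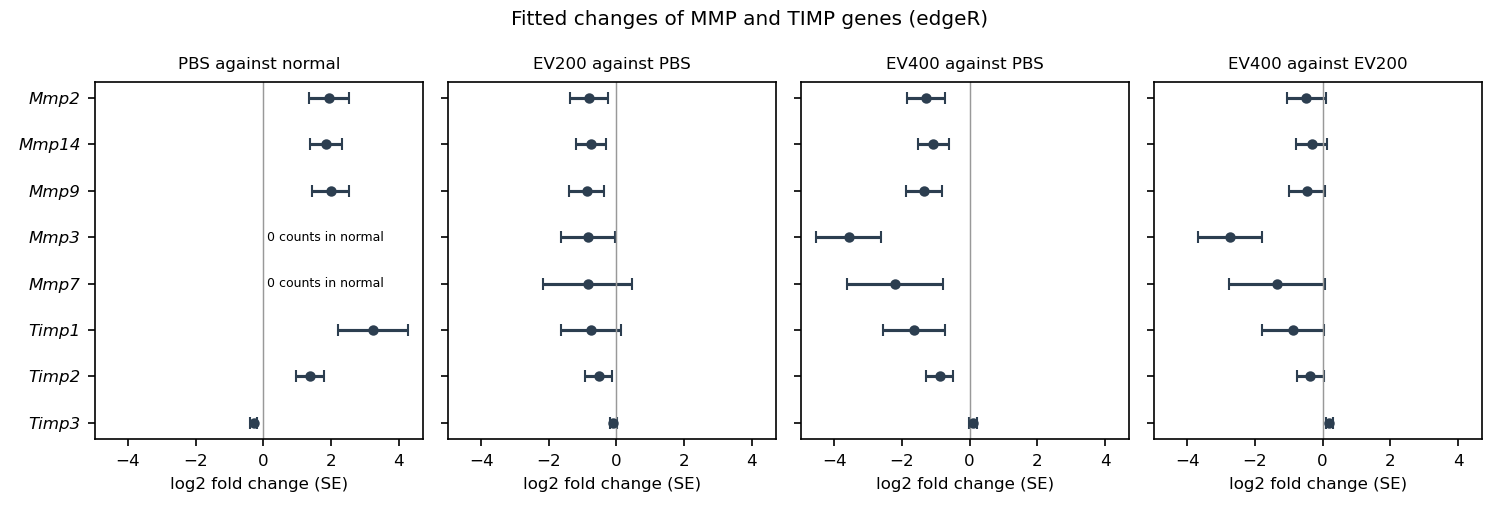
Fitted log2 fold changes from edgeR, with bars for 1 SE, in 4 comparisons on a shared axis; Mmp3 and Mmp7 have no point against normal, where they are listed at 0. Every gene plotted but Timp3 lies right of 0 for PBS against normal and left of 0 for EV400 against PBS.

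Between doses, no member was called by edgeR's quasi-likelihood test (0.00534% of genes) or by DESeq2 (0.0871%), and 1 member, Mmp3, had an unadjusted p under 0.05 (6.34%). Mmp3 was lower at 400 µg in every library (background 5.57%, and 5.1% for higher), with 0.3938, 0.6464 and 1.955 CPM at 200 µg. The log2 fold change was -2.73 (SE 0.95), its unadjusted p was 0.017 and its edgeR adjusted p was 0.769. Mmp3 passed the filter on low counts only through PBS and EV200 libraries, so neither p-value is independent support. For the members other than Mmp3 and Timp3, the order of the doses depended on EV200 3. Timp3 was higher at 400 µg by 0.11 to 0.27 on the log2 scale over single libraries left out. By mean, all 7 members other than Timp3 were ordered PBS, EV200, EV400 and normal from high to low, but by median EV200 was below EV400 in 6 of the 7, Mmp3 being the exception. Without EV200 3, the log2 fold change of EV400 against EV200 for Mmp14 went from -0.32 to 0.43 and that of Mmp7 from -1.35 to 2.11.

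Against normal kidney, EV200 libraries had no called member by edgeR's quasi-likelihood test (0.0694% of genes), and 5 members had an unadjusted p under 0.05 (13.2%). Those included Mmp3 and Mmp7, which passed the filter on low counts only through libraries given cisplatin, so neither p-value is independent support. Mmp7, also listed at 0 in EV200 1, did not pass the filter when only these groups were fitted. Mmp3, Mmp14, Timp1 and Timp2 were higher in every EV200 library (background 11.9%), and Timp3 was lower in each (background 12.9%) at -0.38 on the log2 scale (SE 0.11), with an edgeR adjusted p of 0.193. DESeq2 called Mmp3 and Timp3, 2 members, where it called 2.37% of genes. EV400 libraries had no called member by either tool against normal, where edgeR called 0% of genes and DESeq2 0.104%. All 8 overlapped, where 8.28% of genes were separate and higher and 10.6% separate and lower, and 2 had an unadjusted p under 0.05 (6.98% of genes). Those were Mmp3 and Mmp7, both listed at 0 in EV400 3 and in every normal library. Neither passed the filter on low counts when only these groups were fitted, so their p-values are no support for a difference. For Mmp3 in EV400 1 and EV400 2, the counts were 12 and 9, and the EV400 mean was at least 2.379-fold higher than the floor, or 1.524-fold without EV400 1.

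Across the 12 libraries, the members other than Timp3 moved together, with Pearson's r of log2 CPM from 0.709 (Mmp9 with Timp1) to 0.987 (Mmp2 with Timp2). Timp3 had r of -0.812 to -0.6 with them. These points share libraries and depth, and the large spread of PBS and EV200 libraries enters every pair, so r is a description only. Among 10696 genes of at least 5 CPM, those with the highest r were Eln (0.992), Plekhh2 (0.991) and Serping1 (0.988) for Mmp2, and Ccl6 (0.994), Trf (0.989) and C3ar1 (0.989) for Mmp14. For Mmp3 they were Ermp1 (0.963), Tnc (0.962) and Fry (0.96), and for Mmp7 they were Sdc1 (0.984), Tmem98 (0.98) and Anxa1 (0.978). Mmp9 was closest to Nlk (0.955), Cd74 (0.95) and Il2rg (0.947). Timp1 was closest to Itgax (0.974), Spn (0.97) and Ptprs (0.97), and Timp2 to Itpripl2 (0.992), Nes (0.989) and Pros1 (0.989). Timp3 was closest to Tgoln1 (0.939), Man1a (0.936) and Phkb (0.928).

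**Figure D4:**
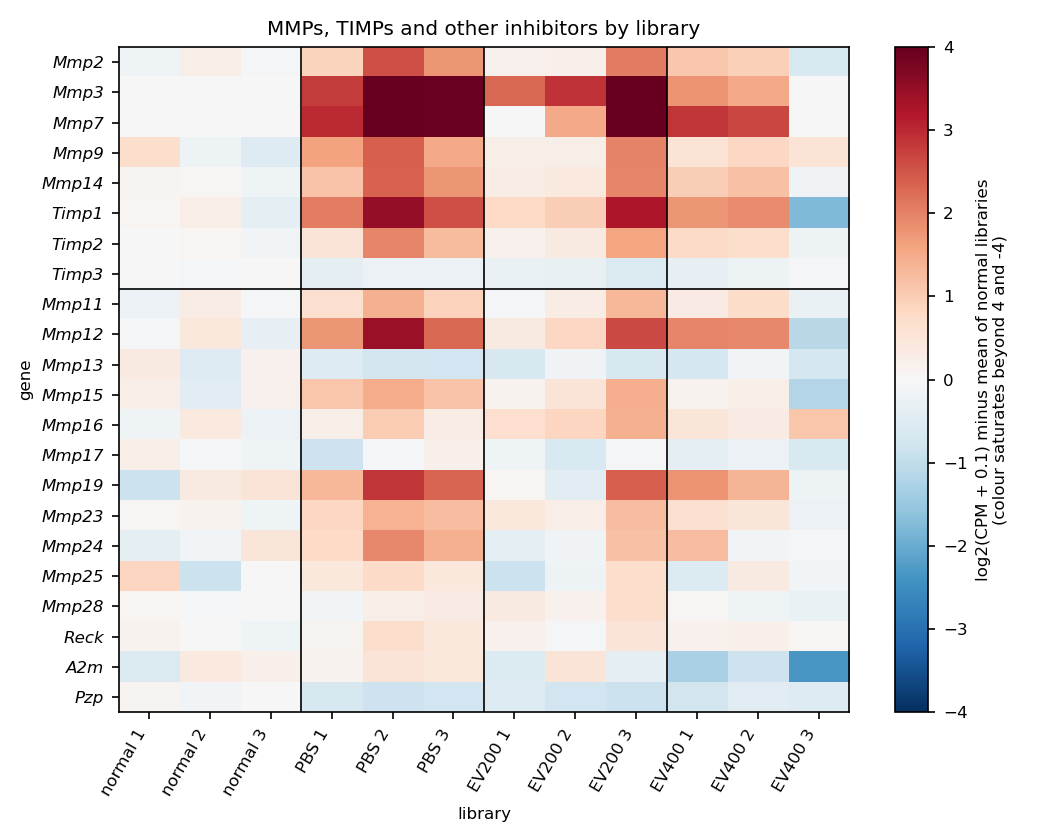
Colours show log2(CPM + 0.1) of each tested gene of the MMP and inhibitor lists in each library, minus the mean of the normal libraries, with red higher, blue lower and colours saturating beyond 4 and -4. PBS 2 and EV200 3 are the reddest columns among the members, and Timp3 is the member that lies below normal in both.

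Summed macrophage and fibroblast markers were higher in every PBS library than in any normal one, as were the members other than Timp3. The sum of 8 macrophage markers was 136.6 to 161 CPM in normal, 336.5 to 652.3 in PBS, 196.8 to 581.1 in EV200 and 132.9 to 284.6 in EV400 libraries. None of those markers was at 0 in any library, and 4 of 8 rose in PBS against normal by edgeR's test, where 1.84% of all genes were called higher: Lyz2, Ctss, Cd68 and C1qa. The sum of 8 fibroblast markers was 143.1 to 150.5 CPM in normal, 188.6 to 500.8 in PBS, 140.1 to 317.3 in EV200 and 106.1 to 206.4 in EV400 libraries, with 2 of 8, Lum and Postn, called higher in PBS against normal. A sum of 6 urothelial markers was 1.435 to 3.01 CPM in normal, 8.536 to 21.44 in PBS, 2.067 to 22.11 in EV200 and 1.623 to 6.322 in EV400 libraries, with up to 3 of the 6 listed at 0 in a library and 1 of 6, Psca, called higher in PBS against normal. Epithelial transcripts moved as well. The 5 proximal tubule markers summed to 11540 to 11710 CPM in normal, 6408 to 9402 in PBS, 7250 to 11080 in EV200 and 9209 to 10350 in EV400 libraries. All 5 were lower in every PBS library than in any normal one (20% of genes), and 1, Cubn, was called. The 4 loop of Henle markers summed to 2634 to 3060 CPM in normal, 3534 to 4090 in PBS, 3808 to 4250 in EV200 and 3245 to 3723 in EV400 libraries, with 3 (Slc12a1, Kcnj1 and Cldn16) called higher in PBS against normal. Those calls are edgeR's. In PBS against normal, DESeq2 called 7 macrophage, 6 fibroblast, 3 urothelial, 3 proximal tubule and 4 loop of Henle markers (16.3% of its tested genes). The 4 podocyte markers summed to 240.4 to 289.5 CPM in normal and 300.3 to 376.2 in PBS libraries. Of the podocyte markers, 0 were called by edgeR's test and 3 by DESeq2 in that comparison. The 4 endothelial markers summed to 224.9 to 241.1 CPM in normal and 194.3 to 241.8 in PBS libraries. For 4 collecting duct markers the sums were 205.7 to 235 and 164.9 to 323 CPM. Neither tool called an endothelial or collecting duct marker in PBS against normal. In EV400 against PBS, DESeq2 called 1 collecting duct marker (5.62% of its tested genes). Neutrophil markers, 9 genes, summed to 1.355 to 5.357 CPM, and Ly6g and Camp were at 0 in every library. The part of any of these cells in the members' levels was not tested.

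**Figure D5:**
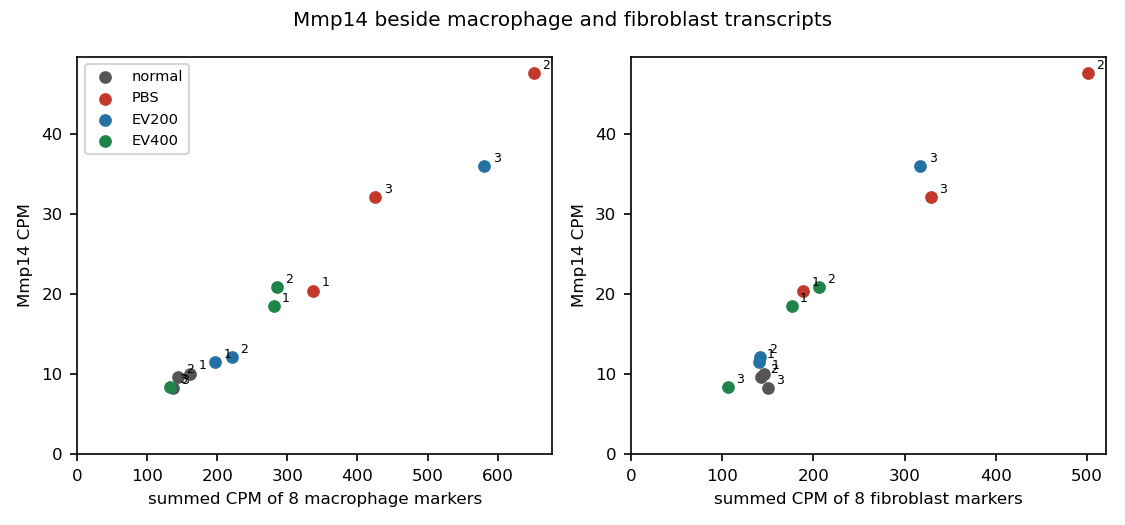
Mmp14 CPM against the summed CPM of 8 macrophage markers (left) and 8 fibroblast markers (right), 1 point per library with its replicate number, coloured by group. PBS 2 is highest on both axes in both panels, and the normal libraries lie together at the lower left.

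Other genes of the pathway were described from lists of family members, inhibitors, activators and substrates. Of 18 other MMP genes, 11 were tested and edgeR's quasi-likelihood test called none in any comparison. DESeq2 called 5 in PBS against normal (16.3% of its tested genes) and 1 in EV400 against PBS (5.62%). It gave no adjusted p to 8 and 10 of the 18 in those comparisons. In PBS against normal the median log2 fold change of the 11 tested was 1.04, against 0 over all tested genes. There 6 of the 11 had separate groups, all higher (20.3% of all genes). Mmp12, the macrophage elastase, stood at 2.183 ± 0.6185 in normal and 14.18 ± 8.876 CPM in PBS (SD, n = 3), a log2 fold change of 2.7 with an edgeR adjusted p of 0.0633. Mmp19 was at 2.46 and Mmp23 at 1.19 on the log2 scale, with edgeR adjusted p of 0.0917 and 0.0503. Mmp13, a collagenase, had a negative log2 fold change of -0.75 (edgeR adjusted p 0.0968).

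Among 4 further inhibitors, 3 were tested and Pzp, an alpha-2-macroglobulin family protease trap, fell from 243.6 ± 19.67 to 145.4 ± 8.32 CPM (SD, n = 3). The change of -0.74 (SE 0.11) had an adjusted p of 0.0321 by edgeR's quasi-likelihood test. Reck, a membrane inhibitor of MMPs, was at 5.873 CPM in normal and 7.916 CPM in PBS libraries, with overlapping groups. Of the activators, 9 of 10 were tested and St14, the gene of the membrane serine protease matriptase, rose from 31.61 ± 0.9646 to 48.85 ± 2.136 CPM (SD, n = 3), a log2 fold change of 0.63 (edgeR adjusted p 0.0321). DESeq2 called 5 of the activators in that comparison (16.3% of its tested genes). St14 was also called in EV200 against normal at 0.75 (edgeR adjusted p 0.00988). Plau, the urokinase gene, was at 473.4 CPM in normal and 467.4 CPM in PBS libraries.

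Of 21 ADAM, ADAMTS and astacin proteases, DESeq2 called 9 in PBS against normal (16.3% of its tested genes). EdgeR's test called 1 there (2.74% of genes), Adamts1, a secreted protease that cuts versican and aggrecan. Adamts1 rose from 34.23 to 69.7 CPM, a log2 fold change of 1.03 (SE 0.23, edgeR adjusted p 0.0467). Of 15 substrates and binding partners, edgeR's test called 2 (2.74% of genes) and DESeq2 called 6 (16.3%) in the same comparison. Spp1, the gene of osteopontin, which MMPs cleave, rose from 317.8 to 882.9 CPM (log2 fold change 1.47, edgeR adjusted p 0.0436). Lcn2, whose product binds MMP-9 in human, rose from 0.5401 to 12.37 CPM (log2 fold change 4.52, edgeR adjusted p 0.0471). None of the edgeR calls in PBS against normal held when normal 1, 2 or 3 was left out, since 0 genes were then called. The St14 call in EV200 against normal was lost in the same way, with adjusted p of 0.0865, 0.0772 and 0.104 by edgeR's test.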

How the data were processed

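Whole-number counts per gene and TPM values were deposited by the authors in 1 table of 45777 genes, and both were used as they stand. TPM values, normalized by the authors to transcript length, served only to compare levels between genes. Per the submitters' processing notes, HISAT2 2.1.0, StringTie 2.1.3b, Trimmomatic 0.38 and FastQC 0.11.7 are named, with builds GRCm38 and mm10. Which program counted, on which strand and with which annotation is not given in the sources used here. A further 12 per-sample columns of the table (FPKM) were left unused.

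EdgeR 4.0.16 (R 4.3.3) was run with its quasi-likelihood test on all 12 libraries in 1 fit with TMM factors, the default filter by group and no block. This left 18730 genes and 8 residual degrees of freedom. A gene was called at a Benjamini-Hochberg adjusted p under 0.05 over all tested genes. An SE was obtained from the log2 fold change and its F statistic (size over root F). Against all-zero groups a fold is a lower bound from a floor of 3 counts per library, and covers counting error only. Log2 CPM for likeness used a prior count of 2 (limma 3.58.1 was loaded with edgeR).

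The members and gene lists were chosen with earlier results of these data known, so they are not independent evidence. All 8 members are named in every comparison. Other named genes are those called within their list, tested MMPs and inhibitors, the 3 genes of highest r with each member, and genes overlapping a member. Plau was added after its values had been seen. Alternatives were other scaling, no filter, DESeq2 1.42.0, a block for the replicate number, fits without the groups not compared, and leaving out each library. Leaving out PBS 3, EV200 3 and EV400 3 together was chosen after seeing the data. Promoters and coordinates come from RefSeq GRCm38.p6, in which 45679 identifiers matched, and exon overlaps from GENCODE. A promoter was listed for 6 members, all but Mmp2 and Mmp9.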

Additional observations from a re-analysis of the deposited data

How the results depend on the processing

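Of the members' fold changes under other settings, 528 kept their direction and their side of the threshold, 26 newly passed it, 6 no longer did and 13 changed sign, and the causes of the differences below were not tested. For PBS against normal, 514 genes and 1 member were called, against 299 genes with no filter, 2801 genes and 7 members with DESeq2, 1449 genes and 7 members with only the compared groups, and 2319 genes and 8 members without PBS 3, EV200 3 and EV400 3 together. Leaving out 1 library gave 0 to 2277 genes and 0 to 5 members: 0 genes without normal 1, 2 or 3, 2277 without PBS 1, 1 without PBS 2 and 79 without PBS 3. For EV200 against PBS, 3 genes were called, with 41 by DESeq2, 0 with only the compared groups, 9 without the 3 libraries and 1 to 6 without single libraries. For EV400 against PBS, 15 genes were called, with 877 genes and 1 member by DESeq2, 2 with only the compared groups and 0 to 26 without single libraries. For EV400 against EV200, 1 gene was called, with 15 by DESeq2, 0 with only the compared groups and 0 without the 3 libraries. For EV200 against normal, 13 genes were called, with 484 genes and 2 members by DESeq2, 28 with only the compared groups, 1 without the 3 libraries and 2 to 58 without single libraries. For EV400 against normal, 0 genes were called, with 28 by DESeq2 and 6 without the 3 libraries.

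The replicate block called 0 genes and 0 members for PBS against normal, 0 for EV200 against PBS, 0 for EV400 against EV200 and 6 for EV200 against normal. Same-numbered libraries had correlations of deviations from -0.385 to 0.344 (median -0.0135, 2 of 18 over 0.1), so the numbers give no pairing. Under the block the adjusted p of Mmp3 in PBS against normal was 0.0867 by edgeR.

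Directions reversed in EV400 against EV200. Over single libraries left out, the log2 fold change ran from -0.79 to 0.46 for Mmp2, -1.93 to 2.11 for Mmp7, -0.78 to 0.47 for Mmp9, -0.59 to 0.43 for Mmp14, -1.35 to 0.49 for Timp1 and -0.61 to 0.22 for Timp2, each highest without EV200 3. Without the 3 libraries together, the values were 0.82 for Mmp2, 2.68 for Mmp7, 0.52 for Mmp9, 0.74 for Mmp14, 1.06 for Timp1 and 0.47 for Timp2, and Timp3 in EV200 against PBS was 0.02. Depth limits Mmp3, Mmp7, Mmp9 and Timp1, whose libraries hold 0 to 260 counts.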
